A study of Mus musculus with 4 samples.

Results

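The 40 DNA replication and S phase genes described here license replication origins, unwind DNA, copy it, supply its nucleotides and start or watch over S phase. They were chosen by name, with earlier results of these data known. Each was read from the probe set naming that gene alone which had the highest mean level over the arrays. All 40 were measured, out of 18193 named genes. The values come from K7M2, an established osteosarcoma line of the mouse that is known to metastasise, kept in medium with serum and measured on 4 arrays with a single dye. On 3 arrays, replicates 1 to 3, the cells over-expressed ezrinT567A-GFP. This is ezrin fused to green fluorescent protein with alanine in place of the threonine near its end that is normally phosphorylated. On 1 array they over-expressed GFP alone. Ezrin links membrane proteins to cortical actin. The series' design text calls the reference the wild type, whereas the label of the control array names GFP over-expression. The labels give neither the promoter of the transgenes nor whether a line was a clone or a pool. No source states that the 3 replicates were separate cultures. The p-values therefore reflect the spread among these arrays, which may be technical, and precision is limited by how few arrays there are.

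Replication begins when the origin recognition complex, with Cdc6 and Cdt1, loads the ring of Mcm2 to Mcm7 onto DNA in G1, a step called licensing. In S phase Cdc45 and the GINS proteins turn that ring into an active helicase, primase and the polymerases copy both strands around the PCNA clamp, and ribonucleotide reductase and the thymidylate enzymes feed them deoxynucleotides. Many of these genes are transcribed in late G1 under E2F transcription factors, and cyclin E with its kinase drives entry into S phase.

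All values below are RMA levels on the log2 scale, which are not compared between genes, and every difference is the ezrinT567A-GFP mean minus GFP. Array medians over all probe sets lay between 3.85 and 3.89. Hybridization spike-ins averaged 10.1, 11.1 and 10.4 on ezrinT567A-GFP replicates 1, 2 and 3, against 9.32 on the GFP array. The 6 measured osteoblast markers did not share a direction. Sparc (-0.27) lay below GFP on all 3 ezrinT567A-GFP arrays, Sp7 (0.26) and Col1a2 (0.14) lay above it, and 3 had arrays on both sides. Of those 3, Col1a1 lay at 11.18, 11.22 and 11.41 on the ezrinT567A-GFP arrays and at 11.31 on the GFP array. The late bone matrix gene Ibsp lay at 2.88, 2.80 and 2.74 on the ezrinT567A-GFP arrays and at 2.78 on the GFP array, close to each array's lower quartile (2.55 to 2.62). The leukocyte markers did not point 1 way. Ptprc lay at or under 2.22 on all 4 arrays, whereas Csf1r, the receptor of the macrophage growth factor, lay at 11.89, 12.22 and 12.08 on the ezrinT567A-GFP arrays and at 11.91 on the GFP array.

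Since many members are known E2F targets, 5 promoters are shown first. They all carry short E2F words, while the differences of their genes ranged widely. RefSeq promoters of build GRCm38.p6, from 250 bases before to 50 bases after the start, were found for 33 of the 40 members by symbol. The 5 stretches below are the 250 bases before the start, 5′ to 3′ on the gene's strand. Capitals mark the E2F core words, which are TTCCCGC, its variant TTCGCGC, its variant TTGGCGC and its variant TTGCCGC, each on either strand. Overlapping words run together. The regions are chr1:128359706-128359955 (minus strand) for Mcm6, chrX:93632156-93632405 (minus strand) for Pola1, chr7:102441445-102441694 (plus strand) for Rrm1, chr8:75109259-75109508 (plus strand) for Mcm5 and chr4:108579204-108579453 (plus strand) for Orc1.
Mcm6: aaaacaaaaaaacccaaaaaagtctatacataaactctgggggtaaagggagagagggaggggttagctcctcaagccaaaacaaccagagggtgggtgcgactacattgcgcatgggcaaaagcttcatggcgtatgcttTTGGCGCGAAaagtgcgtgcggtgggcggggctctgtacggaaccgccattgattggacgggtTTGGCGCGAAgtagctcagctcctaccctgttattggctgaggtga
Pola1: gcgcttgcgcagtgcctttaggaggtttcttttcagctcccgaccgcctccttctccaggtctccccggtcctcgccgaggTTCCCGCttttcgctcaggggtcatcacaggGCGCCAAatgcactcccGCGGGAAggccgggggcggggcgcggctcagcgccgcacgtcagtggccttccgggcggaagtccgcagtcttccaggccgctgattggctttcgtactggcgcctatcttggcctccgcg
Rrm1: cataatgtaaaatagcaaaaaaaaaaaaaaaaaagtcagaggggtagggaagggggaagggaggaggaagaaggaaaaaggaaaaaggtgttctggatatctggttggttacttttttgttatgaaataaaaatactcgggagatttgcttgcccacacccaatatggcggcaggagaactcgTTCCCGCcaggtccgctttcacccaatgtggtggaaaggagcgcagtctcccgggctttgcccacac
Mcm5: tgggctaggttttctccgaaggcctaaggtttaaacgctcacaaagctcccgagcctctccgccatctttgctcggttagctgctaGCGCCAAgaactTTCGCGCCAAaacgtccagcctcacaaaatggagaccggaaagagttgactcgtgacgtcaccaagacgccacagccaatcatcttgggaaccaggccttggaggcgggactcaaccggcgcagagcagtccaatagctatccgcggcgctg
Orc1: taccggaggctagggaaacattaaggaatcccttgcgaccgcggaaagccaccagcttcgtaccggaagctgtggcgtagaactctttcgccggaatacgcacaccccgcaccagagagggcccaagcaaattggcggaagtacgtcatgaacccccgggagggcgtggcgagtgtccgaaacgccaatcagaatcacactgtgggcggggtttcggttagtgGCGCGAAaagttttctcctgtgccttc

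An E2F word stood in the 300-base window of 19 of the 33 members (57.6%), against 10.9% of 27025 genes in the table and 22.1% of the 8543 genes whose promoters were at least as GC-rich as the median member (60.0% GC). The CCAAT word, bound by NF-Y and spelled CCAAT on either strand, stood in 19 of 33 members (57.6%) and in 41.1% of all genes. In Mcm6 both pairs of overlapping words before the start, at -109 and -46, join the TTGGCGC word to the reverse complement of TTCGCGC. Members with and without a word had similar medians: the 19 with an E2F word had a median difference of -0.34 (-0.80 to 0.08), and the 14 without had -0.28 (-1.10 to 0.27). Of the printed genes, all with an E2F word, Mcm6, Pola1 and Rrm1 had differences of -0.80, -0.71 and -0.38, Mcm5 had -0.21 and Orc1 had 0.08. The 19 members with CCAAT had a median of -0.34 and the 14 without had -0.19. None of these differences between promoter classes was tested. A match of letters is a description and not a bound site.

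The comparison asked whether cells with ezrinT567A-GFP differed from cells with GFP in their replication genes. Of the 40 members, 32 had a mean below GFP, where 7977 of all 18193 genes did. Of the 9096 genes above the median level of 5.04, as 39 of the members are, 4128 did. On all 3 ezrinT567A-GFP arrays 25 members (62.5%) lay below GFP, where 25.6% of all genes did, and 29.6% of those above the median level. On all 3 arrays above GFP lay 3 members, where 32.5% of all genes and 37.0% of those above the median level did, and 12 members had arrays on both sides. The median difference was -0.29 over the members and 0.03 over all genes. By array, the members' medians were -0.30, -0.42 and -0.22 in replicates 1, 2 and 3 (mean -0.31 ± 0.10, SD, n = 3), and those of all genes 0.03, 0.03 and 0.01. All 3 medians are taken against the same GFP array, so the SD holds no variation of that array. A smaller share of cells in S phase and less RNA of these genes per cell cannot be told apart in bulk RNA.

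No member passed the test. By limma's moderated fit, 0 of 40 members and 0 of 18193 genes (0.0%) had an adjusted p under 0.05, and the lowest adjusted p of a member was 0.187. At an unadjusted p under 0.05 lay 14 members, all 14 of them lower, where 6.5% of all genes were lower and 7.46% higher at that level. Among genes above the median level these shares were 8.77% and 11.3%. At least 2-fold lower was 1 member, Tyms, from a dim probe set, where 0.704% of all genes and 0.912% of those above the median level were. No member was at least 2-fold higher, where 0.973% of all genes and 1.66% of those above the median level were. An exact permutation of the 4 arrays cannot go below p = 0.25. In simulated data the limma fit found 3.35% of 2-fold changes, so true differences of that size or smaller would seldom pass.

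**Figure D1:**
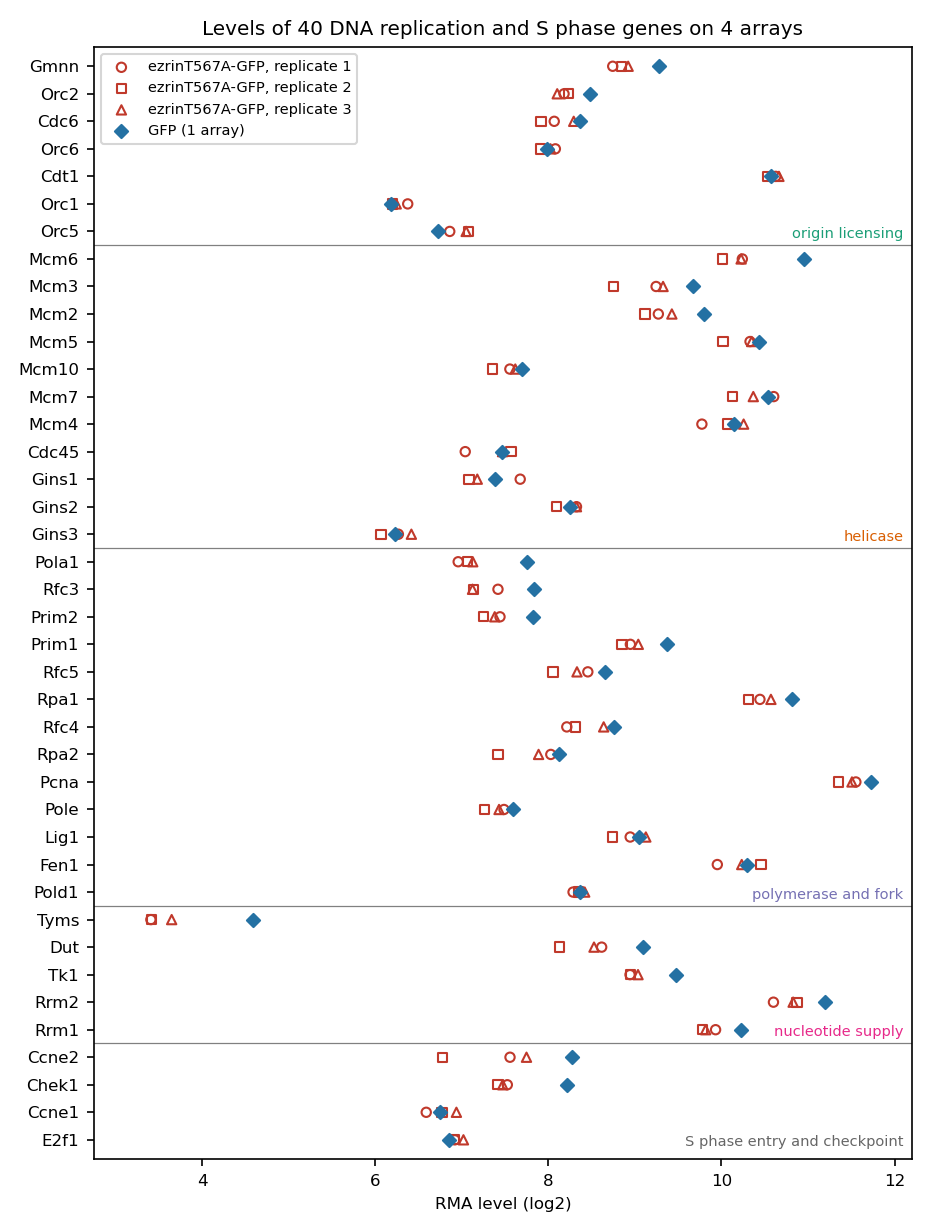
RMA level (log2, horizontal axis) of each of the 40 members on the 3 ezrinT567A-GFP arrays (open red symbols, 1 shape per replicate) and the GFP array (blue diamond), grouped by role. For 25 members all 3 open symbols lie left of the diamond; levels of different genes are not comparable with each other.

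Nucleotide supply stood lowest of the roles, with a median difference of -0.50 (array medians -0.53, -0.52 and -0.44). All 5 members lay below GFP on all 3 arrays, where 25.6% of all genes and 29.6% of those above the median level did. Thymidine kinase Tk1, which salvages thymidine, measured 8.94, 8.95 and 9.04 on the ezrinT567A-GFP arrays, against 9.47 on the GFP array, a difference of -0.50 (SE 0.10, limma adjusted p = 0.240). The 3 ezrinT567A-GFP values lay close together, and GFP lay above them all. The large subunit of ribonucleotide reductase, Rrm1, measured 9.93, 9.78 and 9.82, against 10.23 on the GFP array. Its small subunit Rrm2, the one that is made in S phase, measured 10.60, 10.87 and 10.83 on the ezrinT567A-GFP arrays, against 11.19 on the GFP array. The subunits thus showed similar differences, -0.38 (SE 0.11) for Rrm1 and -0.43 (SE 0.14) for Rrm2. Further probe sets of Rrm2 gave -0.72 and -0.47, and further ones of Rrm1 -0.19 and, on a dim probe set, -0.11. Dut, which breaks down dUTP so that uracil stays out of DNA, measured 8.62, 8.13 and 8.53 on the ezrinT567A-GFP arrays, against 9.09 on the GFP array (difference -0.67, SE 0.23).

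Tyms, which makes thymidylate, had the largest difference of all members, but from a dim probe set. It measured 3.41, 3.42 and 3.65 on the ezrinT567A-GFP arrays, against 4.59 on the GFP array, a difference of -1.10 (SE 0.15, limma adjusted p = 0.187). All 4 levels lay under the median level of all genes, and the other 3 Tyms probe sets, dimmer still, gave -0.05, 0.10 and 0.09. A brighter probe set that names both Tyms and its pseudogene Tyms-ps, and so was left out of the test, measured 8.66, 8.73 and 8.56 on the ezrinT567A-GFP arrays, against 9.01 on the GFP array. Its difference of -0.36 was close to that of Rrm1, and its signal cannot be divided between gene and pseudogene. This probe set was looked at after the values were seen.

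The polymerase and fork genes shared a direction. All 13 had a mean below GFP, where 7977 of all 18193 genes and 4128 of the 9096 above the median level did. Their median was -0.36. On all 3 arrays 10 (76.9%) lay below GFP, where 25.6% of all genes and 29.6% of those above the median level did. The enzymes that start new strands come first here. Pola1, the catalytic subunit of the polymerase that extends primers, measured 6.96, 7.07 and 7.13 on the ezrinT567A-GFP arrays, against 7.76 on the GFP array (difference -0.71, SE 0.13, limma adjusted p = 0.227). Its primase partner Prim2 measured 7.44, 7.25 and 7.38 on the ezrinT567A-GFP arrays, against 7.82 on the GFP array. The primase catalytic subunit Prim1 measured 8.95, 8.85 and 9.04, against 9.37 on the GFP array. These 3 genes of 1 complex each lay below GFP on all 3 arrays, as 25.6% of all genes did. The differences of Prim2 and Prim1 were -0.46 (SE 0.13) and -0.42 (SE 0.12).

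The clamp loader subunits, which open the PCNA ring, showed differences of -0.61 for Rfc3 (SE 0.17), -0.38 for Rfc5 (SE 0.19) and -0.36 for Rfc4 (SE 0.20). Rfc3 measured 7.42, 7.14 and 7.12 on the ezrinT567A-GFP arrays, against 7.84 on the GFP array. Pcna itself measured 11.55, 11.35 and 11.51 on the ezrinT567A-GFP arrays, against 11.73 on the GFP array, a smaller difference of -0.26 (SE 0.11). The single-strand binding proteins Rpa1 (-0.37, SE 0.13) and Rpa2 (-0.34, SE 0.27) lay below GFP on all 3 arrays as well, as did Pole (-0.20, SE 0.14), the leading strand polymerase. The difference of Rpa2 was -0.16 without replicate 2. By their brightest probe sets, 3 members lay closest to GFP in this group, with arrays on both sides of it. They were the flap nuclease Fen1 (-0.09, SE 0.22), the ligase Lig1 (-0.11, SE 0.18, and -0.01 without replicate 2) and the lagging strand polymerase Pold1 (-0.01, SE 0.11, 95% interval of the limma fit -0.32 to 0.30). A second bright Fen1 probe set gave -0.27 and lay below GFP on all 3 arrays.

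**Figure D2:**
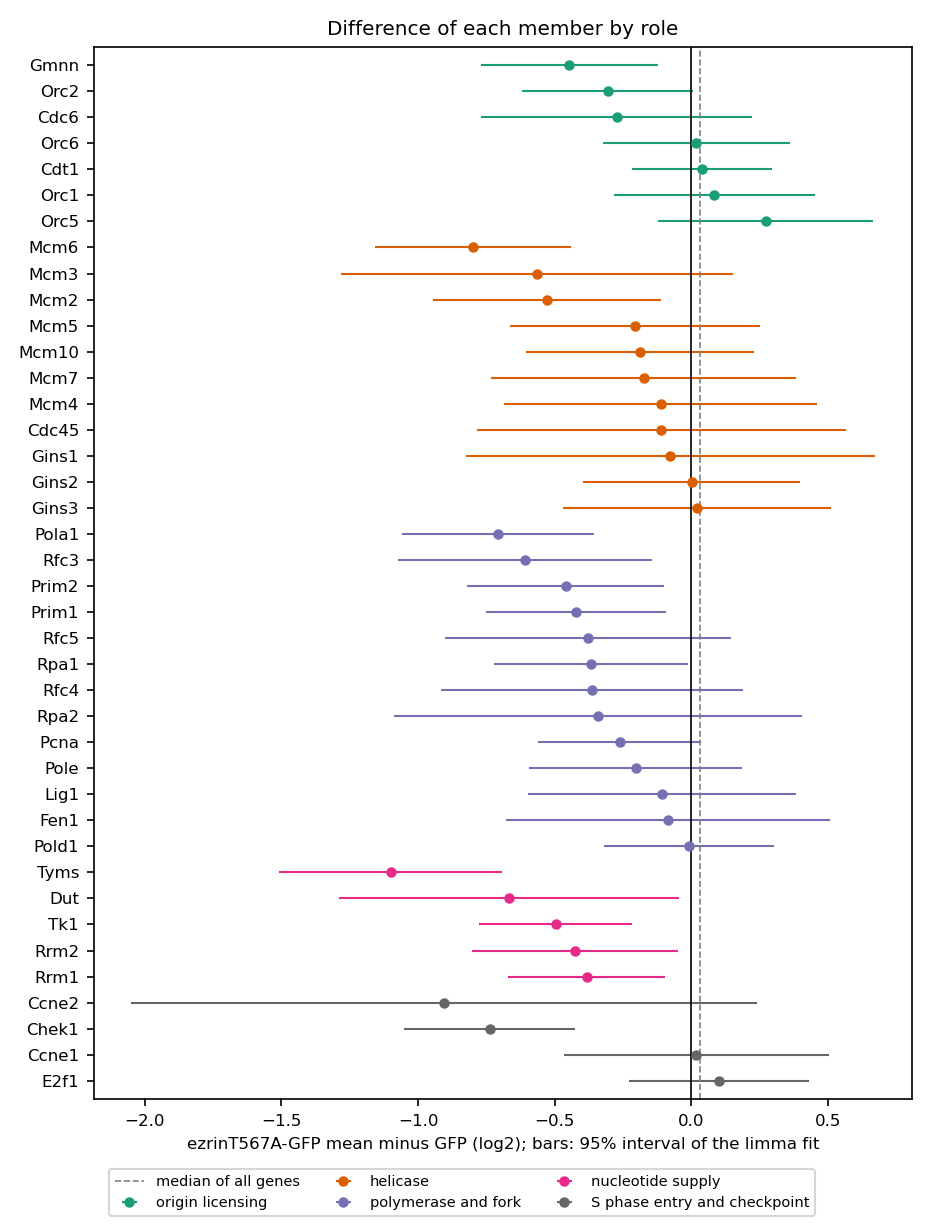
Difference of each member (ezrinT567A-GFP mean minus GFP, log2, horizontal axis), coloured by role, with the 95% interval of the limma fit as bars. All 5 nucleotide supply genes and all 13 polymerase and fork genes lie left of 0, while 4 of 7 licensing genes lie right of it; the dashed line is the median of all genes at 0.03.

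The 11 helicase genes had a median of -0.18, and of -0.11 without replicate 2. Of them 5 (45.5%) lay below GFP on all 3 arrays, where 25.6% of all genes and 29.6% of those above the median level did. None lay above it on all 3, where 32.5% and 37.0% did. All 6 genes of the ring had a mean below GFP (median -0.37), where 7977 of all 18193 genes and 4128 of the 9096 above the median level did. Of the 6, 4 lay below it on all 3 arrays. Mcm6 stood out, at 10.24, 10.01 and 10.23 on the ezrinT567A-GFP arrays, against 10.96 on the GFP array (difference -0.80, SE 0.13, limma adjusted p = 0.214). A further bright Mcm6 probe set gave -0.91, and a dim one -0.08. Mcm2 measured 9.27, 9.12 and 9.43 on the ezrinT567A-GFP arrays, against 9.80 on the GFP array (difference -0.53, SE 0.15), and its other probe set gave -0.48. Mcm3 measured 9.24, 8.75 and 9.33 on the ezrinT567A-GFP arrays, against 9.67 on the GFP array. Its difference of -0.56 had an SE of 0.26 because replicate 2 lay apart, and all 5 of its probe sets were lower, from -0.67 to -0.39.

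The remaining ring genes were nearer to GFP. Mcm5 (-0.21, SE 0.17) lay below GFP on all 3 arrays, whereas Mcm7 (-0.18, SE 0.21) and Mcm4 (-0.11, SE 0.21) had arrays on both sides. Without replicate 2, the difference of Mcm5 was -0.10 and that of Mcm7 -0.06. A second Mcm4 probe set gave -0.59. The 5 factors that join or activate the ring had a median of -0.08, and 1 of them, Mcm10 (-0.19, SE 0.15, and -0.11 without replicate 2), lay below GFP on all 3 arrays. These values overlap those of Mcm4, Mcm5 and Mcm7, and the ring was not tested against the factors. The GINS subunits Gins1, Gins2 and Gins3 differed by -0.08, 0.0005 and 0.02, and Cdc45 by -0.11. Their intervals were wide, reaching from -0.40 to 0.40 for Gins2.

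Origin licensing genes did not share a direction. Their median difference was 0.02, and -0.02 without replicate 1. Below GFP on all 3 arrays lay 3 of 7 (42.9%), against 25.6% of all genes and 29.6% of those above the median level. Above it on all 3 lay 2, against 32.5% and 37.0%. Geminin, Gmnn, which inhibits licensing by binding Cdt1, was the lowest of the 7, at 8.74, 8.85 and 8.92 on the ezrinT567A-GFP arrays, against 9.28 on the GFP array (difference -0.45, SE 0.12, limma adjusted p = 0.282). Its target Cdt1 measured 10.63, 10.54 and 10.66 on the ezrinT567A-GFP arrays, against 10.57 on the GFP array, with GFP among them and a 95% interval of -0.22 to 0.30. The loader Cdc6 measured 8.07, 7.92 and 8.29 on the ezrinT567A-GFP arrays, against 8.37 on the GFP array, a difference of -0.27 (SE 0.18) set largely by replicates 1 and 2.

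Among the origin recognition subunits, Orc2 lay below GFP and Orc5 above it. Orc2 measured 8.18, 8.23 and 8.10 on the ezrinT567A-GFP arrays, against 8.48 on the GFP array, and its other probe sets gave -0.53 and -0.33. Orc5 measured 6.86, 7.08 and 7.05 on the ezrinT567A-GFP arrays, against 6.72 on the GFP array (difference 0.27, SE 0.15), the highest difference of any member. Orc1, the subunit that comes and goes with the cell cycle, and Orc6 differed by 0.08 (SE 0.14) and 0.02 (SE 0.13). The contrast between licensing and the other roles was not tested.

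The 4 regulators of S phase entry and checkpoint formed pairs. The checkpoint kinase Chek1, which restrains origin firing and mitosis when forks stall, measured 7.53, 7.42 and 7.47 on the ezrinT567A-GFP arrays, against 8.21 on the GFP array (difference -0.74, SE 0.12, limma adjusted p = 0.206). Its next brightest probe sets gave -0.73 and -0.89, and the 2 dimmest gave 0.30 and -0.12. Cyclin E2, Ccne2, measured 7.56, 6.78 and 7.75 on the ezrinT567A-GFP arrays, against 8.27 on the GFP array. Replicate 2 lay far below the other replicates, so the difference of -0.91 carried an SE of 0.42, and it was -0.61 without replicate 2.

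Cyclin E1 and E2f1 lay near GFP by their brightest probe sets, E2f1 slightly above it on all 3 arrays. Ccne1 measured 6.59, 6.77 and 6.94 on the ezrinT567A-GFP arrays, against 6.75 on the GFP array, and its other probe set gave 0.49. E2f1, a transcription factor that drives many of the other members, measured 6.92, 6.91 and 7.02 on the ezrinT567A-GFP arrays, against 6.85 on the GFP array (difference 0.10, SE 0.12). The other E2f1 probe sets pointed the opposite way, at -0.34 and -0.37, so the direction of E2f1 depends on the probe set.

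**Figure D3:**
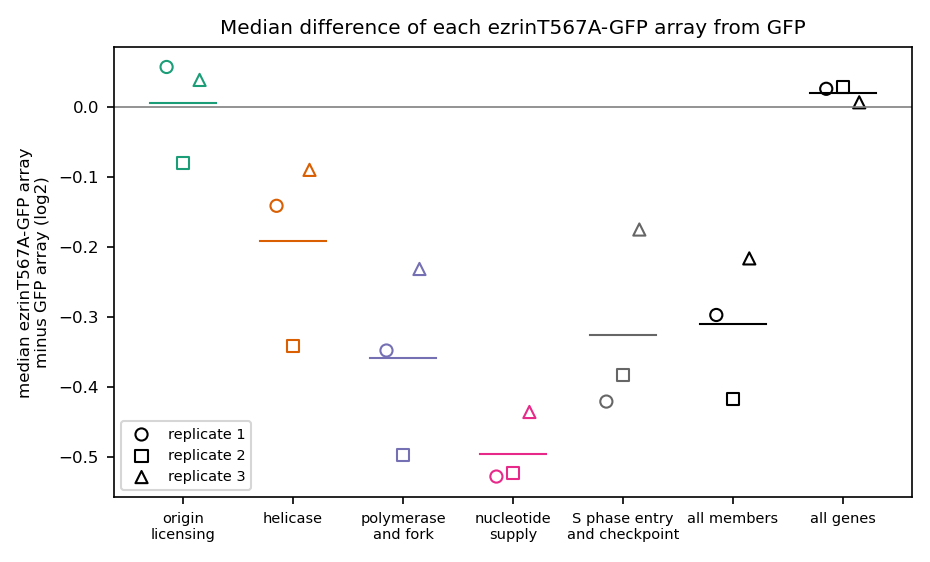
Median over the members of each role of each ezrinT567A-GFP array minus the GFP array (log2, vertical axis); the symbols are replicates 1 to 3 and the lines their means, with all members and all genes at the right. Nucleotide supply lies lowest (-0.53 to -0.44) and origin licensing around 0 (-0.08 to 0.06), and all genes lie between 0.01 and 0.03.

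Replicate 2 was the lowest of the 3 ezrinT567A-GFP arrays for 26 of the 40 members, replicate 1 for 12 and replicate 3 for 2. The same counts over all genes were not made. Over genes above the median level, the medians against GFP were 0.04, 0.004 and 0.04 in replicates 1, 2 and 3. Replicate 2 also had the highest spike-in signal (11.1) and the highest 18S rRNA signal (11.3, against 7.65 and 7.76 on the other ezrinT567A-GFP arrays and 9.09 on the GFP array). Without replicate 2 the members' median was -0.21, and 26 members lay below GFP on both other arrays. The share of all genes below GFP on those arrays was not counted. An alternative added after the values were seen took the spike-in signal into the fit, which left 1 residual degree of freedom. In it the members' median was -0.05, that of all genes was 0.02, and 22 members had a difference below 0. The share of all genes below 0 in it was not counted. In that fit the median of nucleotide supply was -0.47, whereas the helicase median was 0.12. Within nucleotide supply Tyms was -1.02, Rrm2 -0.71, Tk1 -0.47, Rrm1 -0.23 and Dut -0.05, where Dut was -0.67 without the covariate. Of other members, Pola1 (-0.79), Chek1 (-0.61) and Mcm6 (-0.50) stayed below 0, while Mcm3 (0.12), Mcm7 (0.37) and Ccne2 (0.20) turned positive. These 6 were chosen after their values were seen. GFP had the lowest spike-in signal, so spike-in signal and group cannot be fully told apart in 4 arrays.

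Probe sets gave a second reading of most members. The 40 members had 89 probe sets, and 30 members had more than 1. Of these 30, 19 had all their probe sets below 0 and 2 had all of them above 0, Orc1 and Ccne1. The other 9 had probe sets of both signs. Over all 69 member probe sets above the median level, 45 lay below GFP on all 3 arrays. Of genes above that level, each read from its brightest probe set, 29.6% did. The share over all probe sets was not counted. In Cdc45, Chek1, Prim2 and Tyms the probe sets of the higher sign lay under the median level. In Cdt1, E2f1, Gins2, Gins3 and Pold1 probe sets above that level had both signs, with Cdt1 at 0.04 and -0.18.

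**Figure D4:**
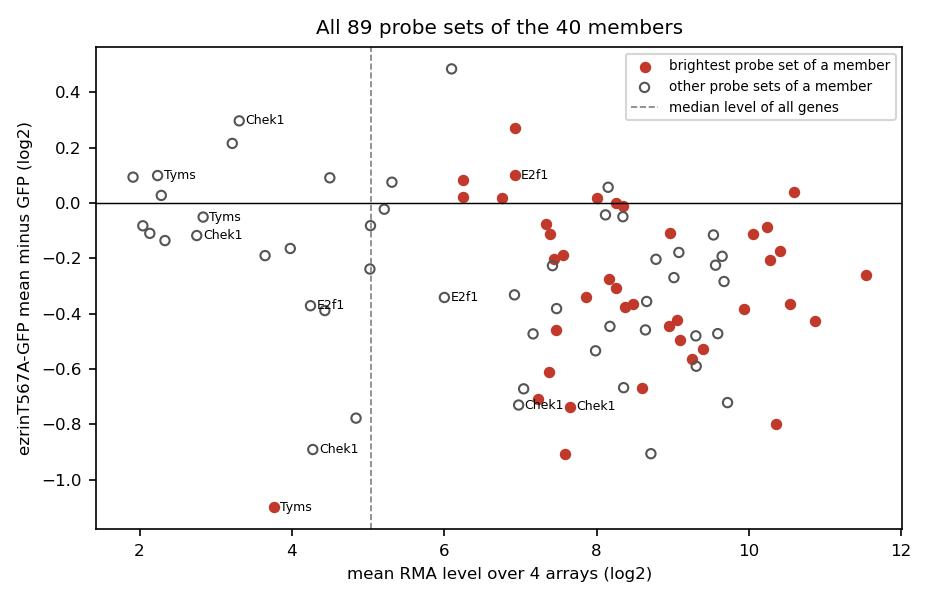
Difference (ezrinT567A-GFP mean minus GFP, log2, vertical axis) of all 89 probe sets of the members against their mean level over the 4 arrays (log2, horizontal axis); filled points are the brightest probe set of each member. Right of the dashed median level of 5.04 most points lie below 0, and left of it they spread to both sides, with Tyms at -1.10.

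The members were also read by the chromosome that carries them, which the choice by name did not use. Chromosomes 1 and 8 were singled out after the values were seen. Over genes above the median level, those of chromosome 1 had a median of -0.34 (510 genes) and those of chromosome 8 a median of 0.24 (516 genes). Of these genes, 72.7% on chromosome 1 and 9.11% on chromosome 8 lay below GFP on all 3 arrays. All 4 members on chromosome 1, Mcm6, Mcm3, Prim2 and Orc2, lay below GFP on all 3 arrays, with a median of -0.51. The 5 members on chromosome 8 were Cdt1, Gins2, Gins3, Orc6 and Mcm5, and their median was 0.02. Mcm5 was the 1 of them below GFP on all 3 arrays. Relative to the median of the brighter genes of its own chromosome, 37 of 40 members lay below 0. Orc1 lay at 0, and Orc2 (0.03) and Orc5 (0.30) lay above. By the definition of a median, as many of the brighter genes of each chromosome lie below 0 as above it. This scale was chosen after the values were seen. On that scale Cdt1 was -0.20, Orc6 -0.22, Gins2 -0.24 and Mcm5 -0.44, against -0.46 for Mcm6 and -0.12 for Prim2. The 31 members on other chromosomes had a median of -0.34. Of these 31, 20 lay below GFP on all 3 arrays, where 25.6% of all genes and 29.6% of those above the median level did. Copy number was not measured, and the part of the chromosomes in the members' differences was not tested.

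**Figure D5:**
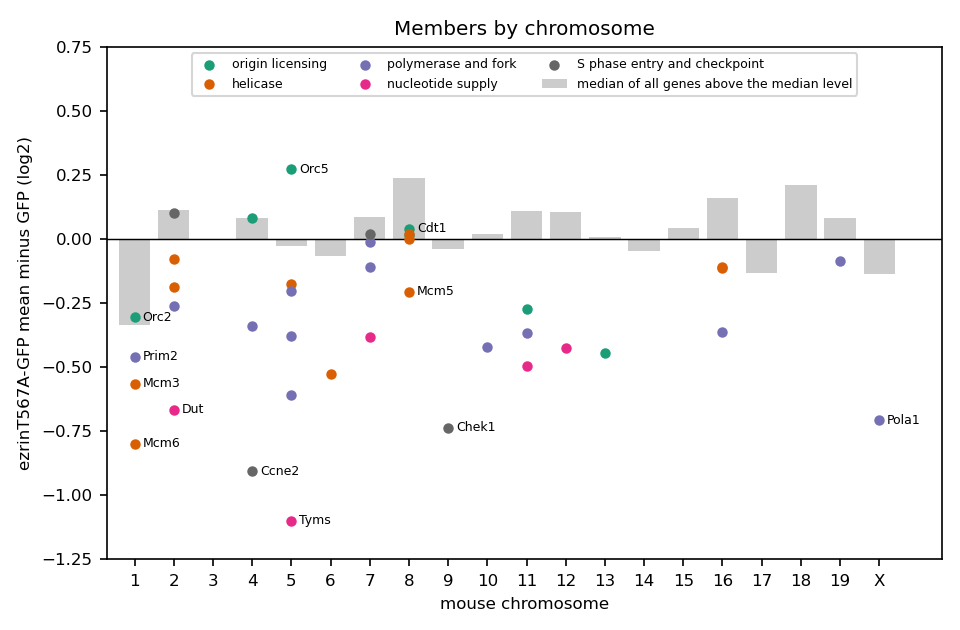
Difference of each member (points, coloured by role; ezrinT567A-GFP mean minus GFP, log2) by mouse chromosome, over grey bars giving the median difference of all genes above the median level on that chromosome. The 4 members of chromosome 1 lie at or below -0.31 beside a bar of -0.34, with Orc2 just inside it, and 4 of the 5 members of chromosome 8 lie near 0 inside a bar of 0.24.

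Further genes of the replication machinery were read from a list. Of 54 further replication genes 51 were measured, and 30 of these lay below GFP on all 3 arrays, 8 above it and 13 on both sides, with a median of -0.17. Of all genes 25.6% lay below GFP on all 3 arrays and 32.5% above it, and of those above the median level 29.6% and 37.0%. With limma 0 of the 51 passed, and unadjusted p-values under 0.05 were found for 13 lower and 3 higher genes, where 6.5% of all genes were lower and 7.46% higher. The 4 lower genes with the smallest p were Slbp (-0.89, SE 0.16), which binds histone mRNA, the clamp loader subunit Chtf18 (-0.65, SE 0.13), the checkpoint and firing factor Topbp1 (-0.68, SE 0.16), and Dtl (-1.16, SE 0.28), which directs the destruction of Cdt1 at forks. Dtl measured 7.08, 6.93 and 7.56 on the ezrinT567A-GFP arrays, against 8.34 on the GFP array. Probe sets ranged from -0.89 to 0.05 for Slbp, from -0.68 to 0.01 for Topbp1 and from -1.21 to -0.42 for Dtl.

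On the higher side stood Samhd1, an enzyme that breaks deoxynucleotides down and that is known as an interferon-induced gene. It measured 7.67, 8.002 and 7.79 on the ezrinT567A-GFP arrays, against 6.73 on the GFP array (difference 1.09, SE 0.17, limma adjusted p = 0.206). The 5 probe sets of Samhd1 ranged from -0.03 to 1.09, and the value given is the highest. By this probe set the direction is opposite to that of the 5 nucleotide supply members. Tk2, the mitochondrial thymidine kinase (0.78, SE 0.21), and the chromatin assembly subunit Chaf1b (0.32, SE 0.11) were the other higher genes at an unadjusted p under 0.05. Orc3 followed (0.22, SE 0.16, limma adjusted p = 0.607). Probe sets of Chaf1b ranged from -0.26 to 0.32 and those of Orc3 from -0.33 to 0.22, so their direction depends on the probe set.

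Of 29 regulators of the G1 to S transition, all measured, 16 lay below GFP on all 3 arrays, 4 above it and 9 on both sides (median -0.26). Without replicate 2 that median was -0.16. With limma 0 of the 29 passed, and 8 were lower and 2 higher at an unadjusted p under 0.05, to be read against the same shares of all genes (25.6% below and 32.5% above on all 3 arrays, 6.5% lower and 7.46% higher by p). E2f8, a repressor of the E2F family that is itself made in S phase, measured 7.72, 7.73 and 7.94 on the ezrinT567A-GFP arrays, against 8.89 on the GFP array (difference -1.09, SE 0.14, limma adjusted p = 0.187). Its relative E2f7 differed by -0.56 (SE 0.15), E2f5 by -0.79 (SE 0.17) and the pocket protein gene Rbl1 by -0.45 (SE 0.12). The pocket protein gene Rbl2, linked to quiescence, differed by 0.48 (SE 0.15) and cyclin D2, Ccnd2, by 0.37 (SE 0.13). The cyclin-dependent kinase inhibitors Cdkn1b (0.16, SE 0.12) and Cdkn1a (0.08, SE 0.10) had limma adjusted p-values of 0.629 and 0.801. Probe sets of both signs were found for Rbl1 (-0.45 to 0.26), Ccnd2 (-0.09 to 0.37) and Cdkn1b (-0.14 to 0.16). Those of E2f8, E2f5, Rbl2 and Cdkn1a kept 1 sign.

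Markers of other cell types were read beside these results. All 6 measured keratinocyte and epithelial markers lay below GFP on all 3 arrays. The sum of their log2 levels was 22.2 to 24.6 on the ezrinT567A-GFP arrays, against 32.5 on the GFP array. Krt14 measured 3.80, 4.83 and 4.15 on the ezrinT567A-GFP arrays, against 7.07 on the GFP array, while the defining regulator Trp63 lay at 3.17, 3.59 and 3.28 on the ezrinT567A-GFP arrays and at 3.66 on the GFP array. The part of these markers in the replication result was not tested. Sums of the log2 levels of 6 leukocyte markers were 27.5 to 28.5 on the ezrinT567A-GFP arrays and 27.9 on the GFP array. Those of 5 endothelial markers were 14.2 to 14.9 and 14.8. A sum of log2 levels is not a total amount of RNA, and Csf1r alone gave 11.89 to 12.22 of the leukocyte sum on the ezrinT567A-GFP arrays. No marker was at 0, since RMA levels have no true zero.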

How the data were processed

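RNA of 4 K7M2 samples, 3 over-expressing ezrinT567A-GFP and 1 over-expressing GFP, was measured on one-colour arrays. The deposited values are log2 levels per probe set, made with RMA per the submitters' processing notes; the software version is not given in the sources used here. The log2 scale was read from the range of the values. RMA forces arrays to nearly equal distributions, which hides any change in total RNA. Of 45101 probe sets, 34958 had 1 symbol in the platform annotation, 932 had several and 9211 were not listed, and the last kinds and control probe sets were left out. Gene IDs matched a GRCm38.p6 gene table for 34754 probe sets, with 0 symbols changed. Each of 18193 genes was read from its brightest probe set, with no filter on dim genes.

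Groups came from the sample titles. ezrinT567A-GFP was set against GFP with limma 3.58.1 in R 4.3.3 (lmFit, eBayes with a mean trend, two-sided, Benjamini-Hochberg over all genes, threshold 0.05). The 2 residual degrees of freedom came from the ezrinT567A-GFP arrays, and the GFP array was assumed to vary like them; the prior was worth 2.23. SE is the moderated standard error. The fit was tested on simulated data. Members, roles and lists were chosen with earlier results of these data known. All members may be named; of the other lists, up to 4 genes per direction with the smallest p were named. Figures used matplotlib 3.10.9 in Python 3.11.15. Alternatives were quantile normalization or median centring, averaging the probe sets of a gene, dropping probe sets ending in _s_at, _x_at or _a_at, dropping dim genes, eBayes with no trend or a robust prior, and dropping each replicate. No batch label was given. Of the listed genes, 3 further replication genes and 4 marker genes were not analysed here.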

Additional observations from a re-analysis of the deposited data

How the results depend on the processing

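With limma 0 of the members passed under any alternative tried, although in the whole series 34 genes passed after quantile normalization, 26 after centring, 9 under the robust prior, 6 with averaged probe sets and 3 when dim genes were left out. Members below GFP on every array used numbered 24 to 28, and the share of all genes under each alternative was not counted. Their median was -0.34 to -0.27 under other normalizations, other probe set rules and without dim genes, and -0.33 to -0.21 when a replicate was left out. It was -0.34 without chromosomes 1 and 8 and -0.33 relative to chromosome medians, both chosen after seeing the data. Without _s_at, _x_at and _a_at probe sets, which left 36 members, the median of licensing turned to -0.081, that of nucleotide supply was -0.72 and that of S phase entry and checkpoint -0.54. With averaged probe sets the G1 to S regulators had -0.14. With the spike-in covariate, also chosen after seeing the data, the medians were -0.047 for all members, 0.12 for the helicase, -0.14 for polymerase and fork, 0.024 for S phase entry and checkpoint and -0.086 for the G1 to S regulators. The cause of these shifts was not tested.

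Of 316 values of single members under the alternatives that can move a difference, 279 kept their direction and 37 turned sign; changing the eBayes prior or dropping dim genes leaves differences as they are. Quantile normalization put Pold1 at 0.012. Centring put Orc6 at -0.030, Cdt1 at -0.0082, Gins2 at -0.047, Gins3 at -0.026 and Ccne1 at -0.029. Averaged probe sets put Cdt1 at -0.037, Gins2 at -0.021, Gins3 at -0.0005, Pold1 at 0.024 and E2f1 at -0.20. Leaving out the 3 probe set kinds put Cdt1 at -0.18, Gins2 at -0.043, Pold1 at 0.057 and E2f1 at -0.34. The spike-in covariate put Cdc6 at 0.013, Mcm3 at 0.12, Mcm5 at 0.22, Mcm7 at 0.37, Mcm10 at 0.10, Gins1 at 0.53, Rfc5 at 0.11, Pole at 0.078, Lig1 at 0.23, Rpa2 at 0.42, Ccne1 at -0.098 and Ccne2 at 0.20. Leaving out each replicate in turn gave -0.021 to 0.066 for Orc6, -0.22 to 0.017 for Mcm4, -0.21 to 0.050 for Cdc45, -0.037 to 0.076 for Gins2, -0.044 to 0.023 for Pold1, -0.21 to 0.045 for Fen1, -0.26 to 0.038 for Gins1, -0.062 to 0.11 for Gins3 and -0.067 to 0.11 for Ccne1. No paired analysis was possible because GFP has 1 array, so the groups share fewer than 2 replicate numbers. Signal over background of the arrays was not used here.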
